A study of Mus musculus with 4 samples.

Results

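The genes described here are 38 genes of the cardiomyocyte sarcomere, of calcium handling in heart muscle and of its energy supply, read in semilunar valve leaflets of newborn mice that lacked or carried the receptor Cxcr7. They were chosen by name as a list, with earlier results of these data known. Each was represented by its single-gene probe set with the highest mean signal over the 4 arrays. All 38 had such a probe set, of 18193 genes that the array measures with at least 1 probe set of a single gene. There were 2 pools of Cxcr7-/- neonates and 2 pools of control neonates, described in the labels as wildtype littermates, with 3 animals in each pool. Each Cxcr7-/- animal gave 4 to 6 leaflets of the aortic and pulmonary valves together, and each wildtype animal gave 6. The sources used here give neither strain nor sex nor the design of the Cxcr7 allele, and every pool was amplified from 50 ng of total RNA before hybridisation to an Affymetrix array.

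In a sarcomere, thick filaments of myosin slide along thin filaments of actin, tropomyosin and troponin. Titin and the proteins of the M-band and the Z-disc hold both kinds of filament in register. Calcium enters through the L-type channel (Cacna1c), releases more calcium from the sarcoplasmic reticulum through the ryanodine receptor (Ryr2), and is pumped back by SERCA2 (Atp2a2). Valve leaflets consist mainly of endothelial and interstitial cells, while the leaflet base joins the muscle of the outflow tract and the wall of the great artery. The labels describe the dissected tissue as leaflets, and the arrays do not show which cells a signal came from.

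Signals are linear MAS5 values, and differences are given as log2(signal + 22), Cxcr7-/- minus control. Over all probe sets the median signal was 84.5 and 92.5 for Cxcr7-/- leaflets and 110 and 89.9 for control leaflets. Cxcr7 itself, listed as Ackr3, read 28.3 and 328 in Cxcr7-/- leaflets, against 4936 and 5698 in control leaflets. Postn, Vim, Dcn and Col3a1, the brightest of 15 interstitial cell genes, read between 35352 and 68440.2 in all 4 pools. Interstitial signal was thus strong in each pool, which does not show how much other tissue a pool held. Of the 38 genes, 37 lay above the filter on dim probe sets, a mean log2 value over all arrays above the median, which is a signal of about 87.4. For each of these 37, the Cxcr7-/- pools alone averaged above that level, so none was kept only through the control pools.

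Heart muscle genes had lower signal in Cxcr7-/- leaflets across nearly the whole list. Of the 37 genes kept, 36 had a negative log2 fold change, with a median of -0.85, where 51.8% of all 22518 kept probe sets were negative and their median was -0.02. In 23 of the 37 genes both Cxcr7-/- pools lay below both control pools, against 22.3% of all kept probe sets, and in none did both lie above, against 20.1%. At least 2-fold lower on average were 15 genes, against 4.55% of all kept probe sets. The range ran from -2.11 for triadin (Trdn) to 0.32 for the titin-binding ankyrin repeat protein Ankrd1, the 1 gene with a positive value.

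After adjustment in limma, 0 of the 37 genes had p under 0.05, the smallest being 0.406, and 0% of all kept probe sets did. At an unadjusted p under 0.05, 17 genes were lower and 0 were higher, against 6.18% and 3.94% of all kept probe sets. That count rested on the pools used: 5 genes were lower without Cxcr7-/- pool 1 (2.80% of all kept probe sets in the same fit), 10 without control pool 2 (7.35%) and 29 without control pool 1 (10.5%). Without the intensity trend in the test it was 11, against 6.72%. Of the 37 log2 fold changes, 25 moved by over 1.5 times or turned sign without Cxcr7-/- pool 1, 25 without control pool 2, 17 without control pool 1 and 14 without Cxcr7-/- pool 2. Without control pool 1, 14 of the 37 genes passed the adjusted threshold, where 2.99% of all kept probe sets did, and 35 had both Cxcr7-/- pools below control pool 2, against 39.5% of all kept probe sets. Among the 14 were Mb, Ckm, Tnni3, Myl3, Myh6 and Ryr2; that fit takes the lone control pool to vary as the Cxcr7-/- pools do. In bulk tissue, fewer cells of a type and less RNA per cell cannot be told apart.

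**Figure D1:**
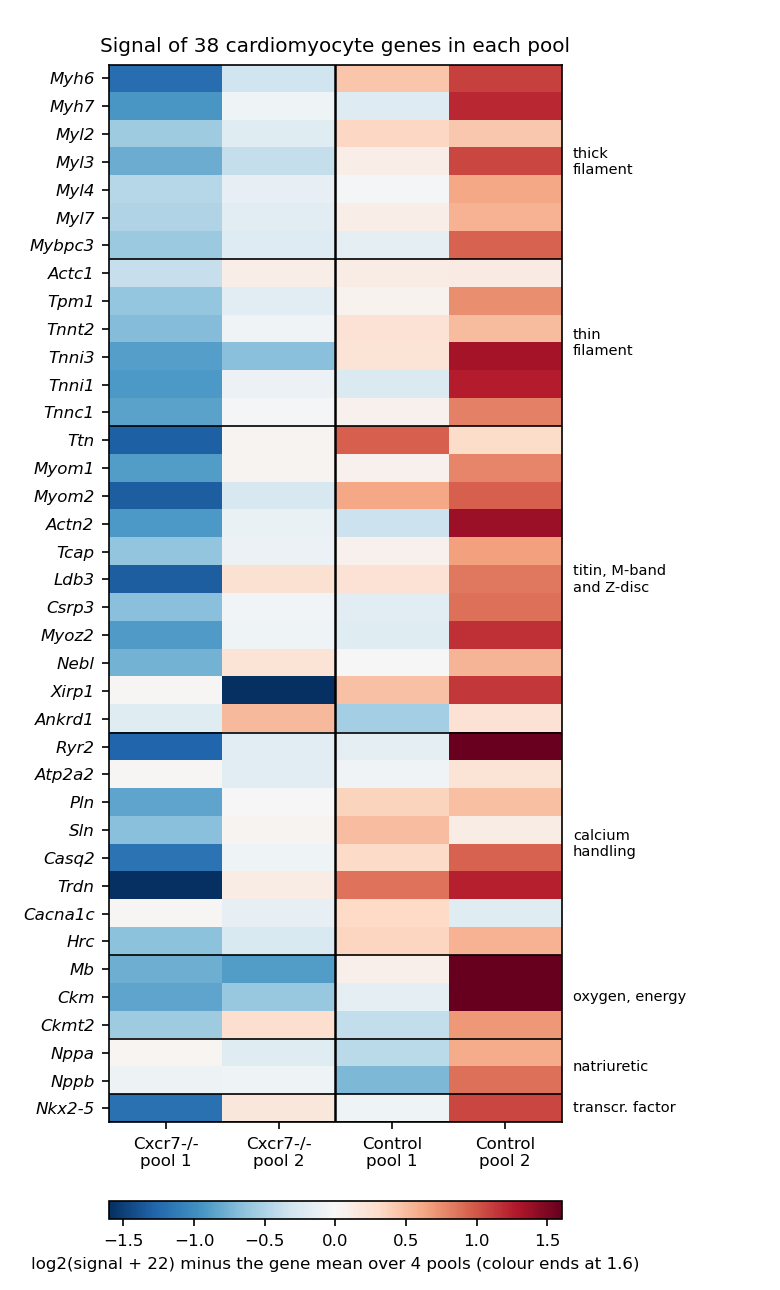
Colour shows log2(signal + 22) of each of the 38 genes in each pool minus the mean of that gene over the 4 pools, with genes in rows grouped by role, the 2 Cxcr7-/- pools on the left and the 2 control pools on the right. Most genes are lowest in Cxcr7-/- pool 1 and highest in control pool 2, while Ankrd1, Nppa and Nppb are lowest in control pool 1.

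The pools formed a graded series, and the spread between pools of a genotype was close to the difference between genotypes. From low to high the order was Cxcr7-/- pool 1, Cxcr7-/- pool 2, control pool 1 and control pool 2 in 20 of the 37 genes, against 6.51% of all kept probe sets. The lowest signal was in Cxcr7-/- pool 1 in 31 genes (23.6% of all kept probe sets) and the highest in control pool 2 in 33 (29.9%). The median gene differed by 0.71 between the Cxcr7-/- pools and by 0.69 between the control pools, on the log2 scale, and 13 of 37 genes had a genotype difference larger than both, against 28.5% of all kept probe sets.

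Set pool against pool, the median difference of the 37 genes was -1.55 between Cxcr7-/- pool 1 and control pool 2. There 36 genes were lower, against 11224 of all 22518 kept probe sets. The median difference was -0.13 between Cxcr7-/- pool 2 and control pool 1. There 25 genes were lower, against 12000 of all 22518 kept probe sets. The other 2 cross comparisons lay between, at -0.76 for Cxcr7-/- pool 1 and control pool 1 and at -0.82 for Cxcr7-/- pool 2 and control pool 2. The middle pair of pools thus read nearly alike for these genes, and the difference was largest between the lowest and the highest pool.

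**Figure D2:**
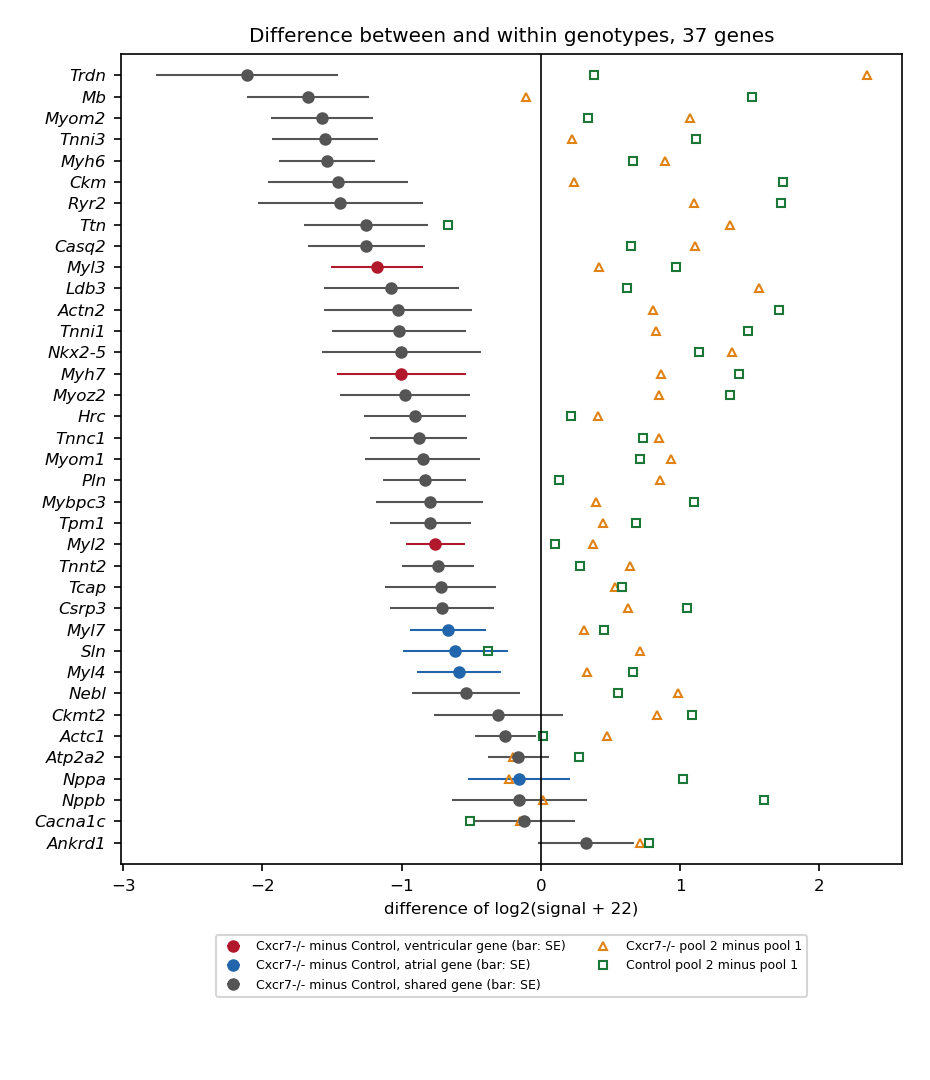
For the 37 genes kept, filled circles give the Cxcr7-/- minus control difference of log2(signal + 22) with its moderated standard error, coloured by chamber class. Triangles give Cxcr7-/- pool 2 minus pool 1 and squares give control pool 2 minus pool 1. Circles lie left of 0 for all genes but Ankrd1, and most triangles and squares lie right of 0 at a similar distance.

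Promoters of 5 genes are shown as examples: Myh6, Myl3 and Myl7 read lower in both Cxcr7-/- pools, while Ankrd1 and Nppb did not. The sequences are the 250 bases before the start site in RefSeq (build GRCm38.p6), 5′ to 3′ on the strand of the gene. They lie at chr14:54966608-54966857 (minus strand), chr9:110763428-110763677 (plus), chr11:5898783-5899032 (minus), chr19:36119845-36120094 (minus) and chr4:147985650-147985899 (plus). Capitals mark matches, on either strand, to the M-CAT element CATTCC bound by TEAD factors, the GATA element AGATAA, the NKX2-5 element TNAAGTG, the MEF2 element or the CArG box bound by SRF.
Myh6: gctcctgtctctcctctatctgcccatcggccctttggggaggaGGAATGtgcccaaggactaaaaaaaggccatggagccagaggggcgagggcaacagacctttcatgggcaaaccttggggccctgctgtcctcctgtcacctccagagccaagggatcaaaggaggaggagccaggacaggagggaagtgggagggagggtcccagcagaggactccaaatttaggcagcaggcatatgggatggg
Myl3: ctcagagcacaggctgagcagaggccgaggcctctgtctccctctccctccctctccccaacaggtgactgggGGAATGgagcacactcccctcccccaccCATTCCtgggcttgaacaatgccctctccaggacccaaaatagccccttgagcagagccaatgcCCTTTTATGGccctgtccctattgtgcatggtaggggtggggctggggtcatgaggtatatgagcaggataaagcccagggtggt
Myl7: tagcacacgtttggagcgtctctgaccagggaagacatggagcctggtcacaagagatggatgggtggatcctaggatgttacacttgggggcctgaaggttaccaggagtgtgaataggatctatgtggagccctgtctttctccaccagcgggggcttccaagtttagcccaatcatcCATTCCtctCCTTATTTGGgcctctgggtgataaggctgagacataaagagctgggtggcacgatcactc
Ankrd1: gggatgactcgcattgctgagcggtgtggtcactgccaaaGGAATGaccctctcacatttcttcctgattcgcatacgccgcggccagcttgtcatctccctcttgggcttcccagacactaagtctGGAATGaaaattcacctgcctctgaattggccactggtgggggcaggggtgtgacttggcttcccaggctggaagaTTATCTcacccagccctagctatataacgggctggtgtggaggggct
Nppb: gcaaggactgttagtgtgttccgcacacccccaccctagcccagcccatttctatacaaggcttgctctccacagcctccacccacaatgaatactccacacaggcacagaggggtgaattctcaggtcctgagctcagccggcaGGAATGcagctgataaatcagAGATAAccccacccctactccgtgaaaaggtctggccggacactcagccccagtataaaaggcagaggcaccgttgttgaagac
The Myl3 promoter holds M-CAT matches 172 and 144 bases from the start site and a CArG box at 76, and that of Myl7 holds an M-CAT match at 65 and a CArG box at 52. M-CAT matches also occur in Myh6, Ankrd1 and Nppb, so the element is found in genes on both sides. All 5 genes shown thus hold an M-CAT match, against 10 of the 32 genes with a matched promoter. The 5 examples do not represent the list for this element. Ankrd1 and Nppb have a GATA match as well, at 42 and 79 bases.

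Promoters were matched for 32 of the 38 genes, 45 start sites in all, and those of Tcap, Xirp1, Atp2a2, Sln, Myom2 and Trdn were not used here. A CArG box was present in 15.6% of these 45 promoters, against 1.47% of all 32851 promoters of the same length. M-CAT matches were present in 22.2% against 12.6%, GATA matches in 17.8% against 9.99%, MEF2 matches in 8.89% against 2.92% and NKX2-5 matches in 6.67% against 10.1%. No matches of different motifs overlapped in the 45 promoters. A match describes letters in this window and was not set against binding data.

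Thick filament genes read lower throughout, with a median of -0.80. In 6 of 7 both Cxcr7-/- pools were below both control pools, against 22.3% of all kept probe sets. Alpha myosin heavy chain (Myh6), the fast adult cardiac motor, read 5374 and 10006 in Cxcr7-/- leaflets, against 16963 and 26791 in control leaflets. The difference was -1.54 ± 0.34 on the log2 scale (limma adjusted p = 0.406), and every Cxcr7-/- value was well below every control value. Here and below, ± gives the SE moderated by limma, with n = 2 and 2 pools. It draws on the variance of other probe sets, so it can be narrower than the spread of a gene's own pools. Beta myosin heavy chain (Myh7), the slow motor of the fetal ventricle, read 6236 and 11325 against 10292 and 27615 (-1.00 ± 0.46), and here Cxcr7-/- pool 2 lay above control pool 1.

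The ventricular regulatory light chain Myl2 read 17957 and 23293 in Cxcr7-/- leaflets, against 33462 and 35920.3 in control leaflets (-0.76 ± 0.21), with tight pools on both sides. The ventricular essential light chain Myl3 read 8005 and 10695 against 15011 and 29348 (-1.18 ± 0.33), and both of its other probe sets also had no overlap. The atrial light chains read lower as well: Myl7 had 1557 and 1930.2 against 2358 and 3237 (-0.67 ± 0.27), and Myl4 had 1532 and 1930.4 against 2059 and 3267 (-0.59 ± 0.30). Myosin-binding protein C (Mybpc3), which tunes the cross-bridge cycle, read 1186 and 1566 against 1626 and 3508 (-0.80 ± 0.38), so Cxcr7-/- pool 2 and control pool 1 were nearly equal.

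Thin filament genes had a median of -0.84. Both Cxcr7-/- pools were below both control pools in 5 of 6, against 22.3% of all kept probe sets. The inhibitory subunit cardiac troponin I (Tnni3) had the largest difference, with 696 and 816 in Cxcr7-/- leaflets, against 1521 and 3312 in control leaflets (-1.55 ± 0.38, limma adjusted p = 0.406). The Cxcr7-/- pools were close together and the control pools far apart. Its fetal counterpart, slow skeletal troponin I (Tnni1), read 2838 and 5051 against 4579 and 12901 (-1.02 ± 0.48), and the genotypes overlapped. The calcium-binding subunit Tnnc1 read 5387 and 9703 against 10314 and 17133 (-0.88 ± 0.35).

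Cardiac troponin T (Tnnt2), which anchors the complex to tropomyosin, read 14685 and 22846 in Cxcr7-/- leaflets, against 27738.5 and 33712 in control leaflets (-0.74 ± 0.26). Tropomyosin 1 (Tpm1) read 5403 and 7351 against 8631 and 13895 (-0.80 ± 0.29); muscle and other cells splice this gene differently, and 1 of its other 3 kept probe sets had the opposite sign, at 0.15. Cardiac actin (Actc1) differed least, with 25220.2 and 35008 against 35299.9 and 35641 (-0.26 ± 0.22). Its 3 highest pools were nearly equal, and only Cxcr7-/- pool 1 stood apart.

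Among titin, M-band and Z-disc genes, 9 of 10 kept genes were negative, with a median of -0.91. In 4 of 10 both Cxcr7-/- pools were below both control pools, against 22.3% of all kept probe sets. The genotypes overlapped in the other 6, and in 12970 of all 22518 kept probe sets. The M-band protein Myom2 read 1108 and 2346 in Cxcr7-/- leaflets, against 4300.0 and 5445 in control leaflets (-1.57 ± 0.36, limma adjusted p = 0.406), and its other 2 kept probe sets were at -1.25 and -0.62. Its relative Myom1 read 230 and 459 against 468 and 781 (-0.85 ± 0.42). Titin (Ttn), the spring that spans from Z-disc to M-band, read 1395 and 3603 against 6796 and 4278 (-1.26 ± 0.44). Titin was highest in control pool 1, unlike most of the list, and was at -0.58 without Cxcr7-/- pool 1.

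In 5 further Z-disc genes, Cxcr7-/- pool 2 exceeded control pool 1. Alpha-actinin 2 (Actn2), which crosslinks actin at the Z-disc, read 1228 and 2165 in Cxcr7-/- leaflets, against 1842 and 6060.5 in control leaflets (-1.03 ± 0.53). Ldb3 (-1.08 ± 0.48), the LIM protein Csrp3 (-0.71 ± 0.37), the calcineurin-binding Myoz2 (-0.98 ± 0.46) and nebulette (Nebl, -0.54 ± 0.39) had the same order of pools. Without Cxcr7-/- pool 1 their values were -0.29 for Ldb3, -0.40 for Csrp3, -0.55 for Myoz2 and -0.045 for Nebl, and that of Actn2 was -0.17 without control pool 2. The other kept probe sets of Ldb3 were at -1.20, without overlap, and at -0.37, with overlap. The titin cap Tcap read 109 and 167 against 189 and 295 (-0.72 ± 0.40), with no overlap. Xirp1, an actin-binding protein of intercalated discs, read 57.6 and 3.43 against 87.3 and 151 and was below the filter, so it was not tested.

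Ankrd1, a stretch-responsive protein that binds titin and also enters the nucleus, departed from the rest. It read 3561 and 5838 in Cxcr7-/- leaflets, against 2783 and 4779 in control leaflets (0.32 ± 0.35, limma adjusted p = 0.782), and the genotypes overlapped. Its other kept probe set read higher in both Cxcr7-/- pools, at 0.90. Within each genotype pool 2 was above pool 1, as for most of the list.

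Calcium handling genes had a median of -0.87. Both Cxcr7-/- pools were below both control pools in 6 of 8, against 22.3% of all kept probe sets. Triadin (Trdn), which ties calsequestrin to the release channel, had the largest difference of all 37 genes, with 173 and 965 in Cxcr7-/- leaflets, against 1635 and 2136 in control leaflets (-2.11 ± 0.65, limma adjusted p = 0.427). Cxcr7-/- pool 1 was far below the other 3 pools, and without it the difference was -0.94. All 6 Trdn probe sets were lowest in that pool: the other 5 read 2.70 to 12.1 there and 105 to 258 in Cxcr7-/- pool 2, against 116 to 386 in control pool 1 and 129 to 497 in control pool 2.

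The partners of triadin at the release site read lower as well. The ryanodine receptor Ryr2 read 186 and 425 in Cxcr7-/- leaflets, against 433 and 1483 in control leaflets (-1.44 ± 0.59), so Cxcr7-/- pool 2 and control pool 1 were nearly equal. Cardiac calsequestrin (Casq2), the calcium buffer of the reticulum, read 352 and 785 against 1025 and 1618 (-1.25 ± 0.42). The histidine-rich calcium-binding protein Hrc read 101 and 142 against 226 and 265 (-0.91 ± 0.37). Without Cxcr7-/- pool 1, Ryr2 was at -0.89, Casq2 at -0.70 and Hrc at -0.70, where Trdn was at -0.94. Casq2 and Hrc had no overlap, and in both the genotype difference exceeded the difference between pools of either genotype.

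Genes of calcium reuptake and entry depended on the probe set. Atp2a2, which encodes SERCA2 in a muscle and a widely expressed isoform, read 11564 and 10035 in Cxcr7-/- leaflets, against 10985 and 13267 in control leaflets (-0.16 ± 0.22), and the genotypes overlapped. Its other 4 kept probe sets ran from -1.27 to -0.24, all without overlap, and the most different of them read 3475 and 4976 against 9090.5 and 11113. Phospholamban (Pln), the inhibitor of SERCA2, read 5958 and 10797 against 13688 and 15003 (-0.84 ± 0.30, and -0.41 without Cxcr7-/- pool 1), while its other kept probe sets were at -1.39 and -0.01. Sarcolipin (Sln), the inhibitor found in atria, read 167 and 287 against 400.1 and 303 (-0.62 ± 0.38). The L-type channel Cacna1c read 189.9 and 169 against 239 and 161 (-0.12 ± 0.37), while a further kept probe set of this gene was at -0.85.

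**Figure D3:**
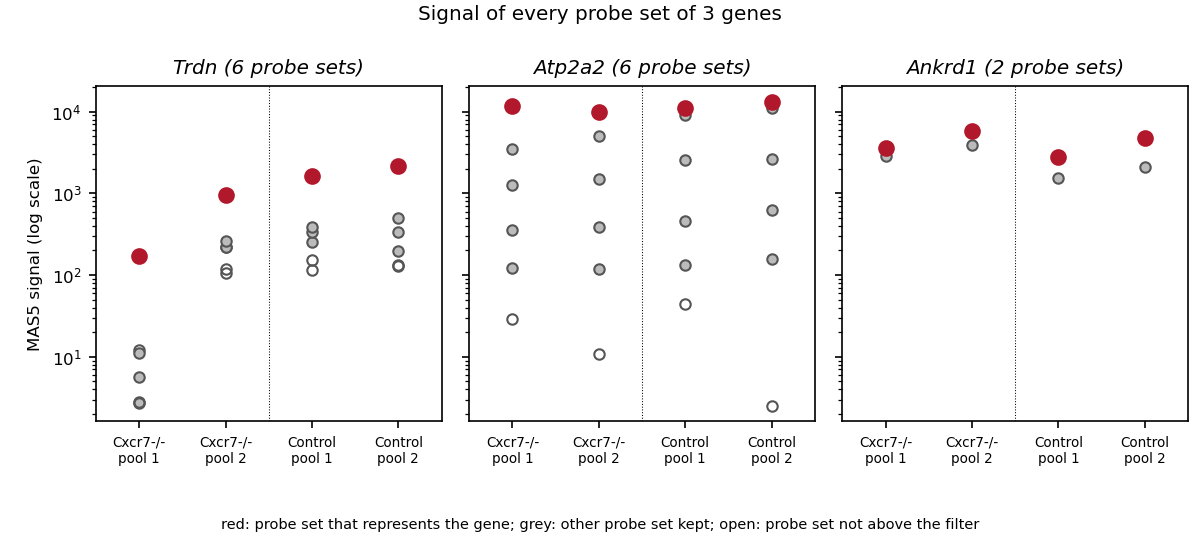
MAS5 signal on a log axis of every single-gene probe set of Trdn, Atp2a2 and Ankrd1 in the 2 Cxcr7-/- and the 2 control pools, with the probe set that represents the gene in red, other probe sets kept in grey and those below the filter open. All 6 Trdn probe sets are lowest in Cxcr7-/- pool 1, those of Atp2a2 differ in how far the genotypes are apart, and both of Ankrd1 are lowest in control pool 1.

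Over the whole list, 18 genes had more than 1 probe set, and 24 further probe sets of 11 genes passed the filter. Of these 24, 23 had the same sign as the probe set that represents the gene. In 17 both Cxcr7-/- pools were below both control pools, against 22.3% of all kept probe sets. The Trdn probe sets among the 24 were kept only through the control pools, so the filter favoured their negative sign. Among all 61 kept probe sets of the list, 40 were lower without overlap and 1 was higher, against 22.3% and 20.1% of all kept probe sets. Names ending in _x_at or _s_at, which mark probes that can bind more than 1 transcript, applied to 4 of the genes as represented.

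The genes of oxygen and energy supply were set apart by control pool 2. Myoglobin (Mb), the oxygen store of muscle, read 3366 and 3129 in Cxcr7-/- leaflets, against 6148 and 17618 in control leaflets (-1.67 ± 0.44, limma adjusted p = 0.406). Muscle creatine kinase (Ckm), which buffers ATP, read 1142 and 1351 against 1881 and 6324 (-1.46 ± 0.50, limma adjusted p = 0.447). For both, the Cxcr7-/- pools were close together, and without control pool 2 the differences were -0.92 and -0.59. The mitochondrial creatine kinase Ckmt2 read 211 and 393 against 242 and 539 (-0.31 ± 0.46), with overlap, and was positive, at 0.24, without control pool 2 and at 0.11 without Cxcr7-/- pool 1.

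The natriuretic peptides did not follow the list. Nppa, the atrial peptide, read 1253 and 1066 in Cxcr7-/- leaflets, against 899.9 and 1850.1 in control leaflets (-0.16 ± 0.37). Nppb, which muscle cells make under load, read 791 and 801 against 501 and 1564 (-0.16 ± 0.48). For both genes the Cxcr7-/- pools lay between the control pools, and the sign rested on control pool 2: without it they were at 0.35 and 0.64. The transcription factor Nkx2-5, which specifies the cardiac lineage, read 59.6 and 189.7 against 156 and 368 (-1.00 ± 0.57), with Cxcr7-/- pool 2 above control pool 1, and was at -0.32 without Cxcr7-/- pool 1.

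The medians of ventricular, atrial and shared genes were all below 0. The 3 ventricular genes (Myl2, Myl3, Myh7) had a median of -1.00 and ranged from -1.18 to -0.76, the 4 atrial genes (Myl4, Myl7, Sln, Nppa) had a median of -0.60 and ranged from -0.67 to -0.16, and the 30 shared genes had a median of -0.89. The ventricular and atrial ranges were apart by 0.095, between Myl2 and Myl7, which is less than the SE of either gene, and they overlapped in 3 of the 4 fits that left out 1 array. The shared genes, from -2.11 to 0.32, covered both. In the 4 pool-to-pool comparisons the ventricular median ran from -1.87 to -0.49 and the atrial median from -0.91 to -0.19. Without control pool 1 the ventricular median was -1.66. Genes of 1 class share the same 4 pools and are not replicates, so the difference between classes was not tested.

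Related isoforms were set side by side through the log2 ratio of their signals, relative to the mean of the control pools. The ratio of Myh6 to Myh7 stood at -0.55 and -0.52 in the Cxcr7-/- pools, with the control pools at 0.38 and -0.38. The ratio of Tnni3 to Tnni1 stood at -0.23 and -0.83, with the control pools at 0.19 and -0.19. In both pairs the adult form was lower relative to the fetal form in each Cxcr7-/- pool than in either control pool. For Tnni3 in pool 1 this was only just so. For Myh6 the Cxcr7-/- pools stood closer to control pool 2 than the control pools stood to each other. For Myl4 over Myl3, an atrial over a ventricular chain, it was 0.64 and 0.55 against 0.15 and -0.15. For Myl7 over Myl2 it was 0.13 and 0.06 against -0.18 and 0.18, within the control spread. These ratios are given as a description, with no test.

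Other heart muscle genes, a further list that shares no gene with the 38, read lower too. This list was also chosen with earlier results of these data known. Of 40 genes listed 37 had a single-gene probe set and 34 were kept. Of these, 32 were negative, against 51.8% of all kept probe sets, and the median was -0.71. In 19 both Cxcr7-/- pools were below both control pools, against 22.3% of all kept probe sets. In 12 the unadjusted p in limma was under 0.05 on the lower side, against 6.18%. None passed adjustment in limma (smallest adjusted p 0.406). Of the 34, 2 were kept only through the control pools. Of the 4 brightest, the small muscle protein Smpx was at -0.99 ± 0.43, the Z-disc protein Synpo2l at -0.96 ± 0.44 and the small heat shock protein Cryab at -0.48 ± 0.29. The cardiac transcription factor Tbx20, which valve cells also express, was at 0.70 ± 0.51 and read 13955 and 17359 in Cxcr7-/- leaflets, against 18078 and 5072 in control leaflets. It was lowest in control pool 2, where most muscle genes were highest.

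Most of the skeletal muscle markers kept had another order of pools. Of 20 skeletal muscle markers 6 were kept, with a median of -1.08, and 2 of these were kept only through the control pools. The genotypes overlapped in all 6, and in 12970 of all 22518 kept probe sets. In 5 of the 6 the highest signal was in control pool 1, against 6085 of all 22518 kept probe sets. Casq1 went the other way and was highest in control pool 2. It read 348 and 339 in Cxcr7-/- leaflets, against 258 and 596 in control leaflets. Troponin C of fast muscle (Tnnc2) read 37.6 and 392 in Cxcr7-/- leaflets, against 1460.0 and 163 in control leaflets, and the fast light chain Mylpf read 87.9 and 382 against 755 and 89.96. The myogenic factors Myod1, Myog, Myf5 and Myf6 were all below the filter. All 20 skeletal markers, dim ones included, summed to a signal of 1452 and 3702 in Cxcr7-/- leaflets, against 6649.7 and 2798 in control leaflets, highest in control pool 1 and not in control pool 2.

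Of 14 smooth muscle markers 11 were kept, with a median of -0.36, and 8 of them were negative, against 51.8% of all kept probe sets. Smooth muscle actin (Acta2), which fetal heart muscle also expresses, was at -0.61 ± 0.25, Tagln at -0.71 ± 0.24 and Myl9 at -0.84 ± 0.28, while Itga8 was at 0.27 ± 0.28. In 6 of the 11 both Cxcr7-/- pools were below both control pools and in 2 both were above. Over all kept probe sets these shares were 22.3% and 20.1%. Smooth muscle myosin (Myh11) was below the filter. The summed signal of all 14 was 25706 and 29759.8 in Cxcr7-/- leaflets, against 34071.5 and 41500.5 in control leaflets. The sum had the same order of pools as the heart muscle genes, but Acta2 was a large part of it. Acta2 read 10905 and 14429 against 16337 and 22392. Of the 11 kept genes 4 had that order, against 6.51% of all kept probe sets. Of 9 adipocyte markers 7 had a single-gene probe set and 2 were kept: Lpl, an enzyme that heart muscle also makes, was at -1.35 ± 0.32 without overlap and Fabp4 at -0.65 ± 0.34 with overlap. The summed signal of these 7 was 4441 and 8181 in Cxcr7-/- leaflets, against 13395 and 14137 in control leaflets. That is again the order of pools of the heart muscle genes, but most of the sum was Lpl. Lpl read 3022 and 5759 against 9710 and 11708, while Fabp4 was highest in control pool 1.

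Interstitial markers read lowest in control pool 2 in 12 of 15 genes, against 7134 of all 22518 kept probe sets. Their summed signal was 352481 and 363214 in Cxcr7-/- leaflets, against 368110 and 264962 in control leaflets. Endothelial markers had a median of -0.29 over 12 genes and summed to 17350.4 and 16738 against 21803 and 26149. All 10 macrophage markers were positive, against 10853 of all 22518 kept probe sets, and their median was 0.89. They summed to 21182 and 16982 against 13191.5 and 10579.7. The 3′ over 5′ signal of Gapdh, which gauges how complete the amplified RNA was, stood at 12.6 and 8.20 against 12.7 and 24.2, highest in control pool 2, and that of Actb was 15.5 and 11.7 against 20.2 and 19.1. The part of these other cell types and of RNA quality in the difference of the heart muscle genes was not tested.

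**Figure D4:**
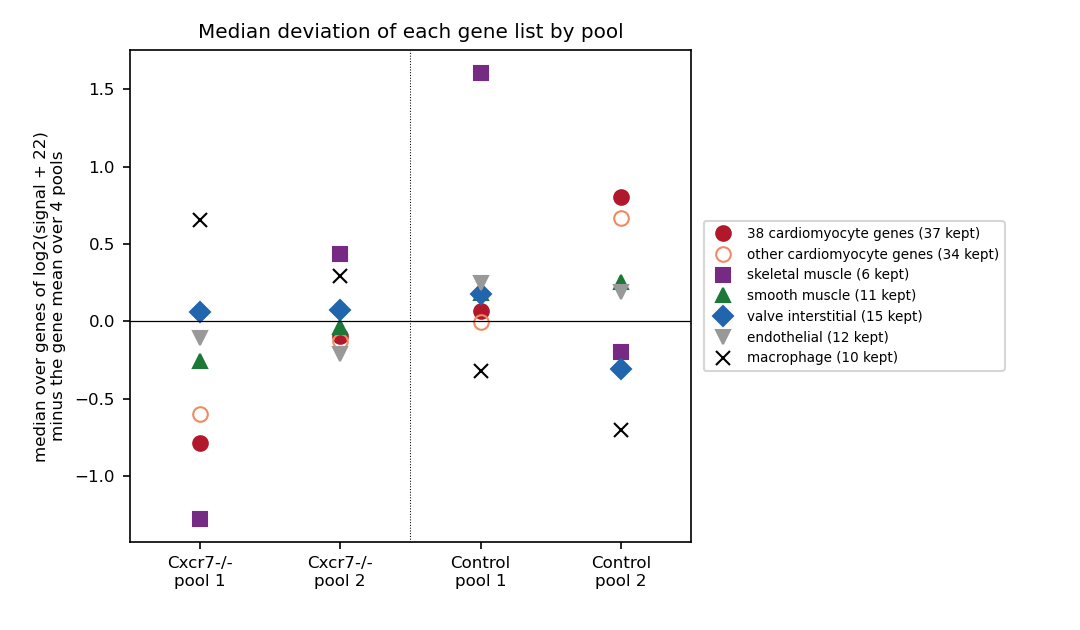
Each point is the median, over the kept genes of a list, of log2(signal + 22) minus the gene mean over 4 pools, with the 2 Cxcr7-/- pools left of the 2 control pools. Both heart muscle lists are lowest in Cxcr7-/- pool 1 and highest in control pool 2, skeletal muscle markers are highest in control pool 1, and interstitial and macrophage markers are lowest in control pool 2.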

How the data were processed

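Leaflet RNA of 4 pools, 2 per genotype, was measured on 1 array each. The authors deposited linear intensity values, made with Affymetrix Expression Console and MAS5 per the submitters' processing notes; software versions, detection calls and genome build: not given in the sources used here. Averaged over the middle 96% of probe sets, each array comes to 500.003, so a gene is read against the rest of its own array. The number of arrays limits the precision.

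After 64 control probe sets were set aside, 22518 of 45037 were kept, those with a mean log2(signal + 22) above the median; 22 is the rounded 25th percentile. Genes came from the array's annotation table by symbol (34945 probe sets with 1 gene symbol, 932 with several, 9160 with none). The genotype contrast was fitted in limma 3.58.1 (R 4.3.3) by lmFit and by eBayes with a trend on intensity; p-values are two-sided and were adjusted by Benjamini-Hochberg over the kept probe sets. The fit had 2 residual and 5.85 prior degrees of freedom and was tested on simulated data. P-values and SEs rest on the spread between pools, moderated by limma with the variance of other probe sets.

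Members, lists and tests were chosen with earlier results of these data known. Named were all 38 members, Ackr3 and up to 4 of the brightest genes of each other list; Myod1, Myog, Myf5, Myf6 and Myh11 were named after their values were seen. The alternatives were other pseudocounts, filters and normalizations, no intensity trend, all probe sets of a gene averaged, the replicate number as a block, and each array left out.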

Additional observations from a re-analysis of the deposited data

How the results depend on the processing

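With 2 pools per genotype, the results rest on single arrays. Leaving out each array in turn gave 0 to 673 probe sets and 0 to 14 members past the adjusted threshold, 5 to 29 members lower at an unadjusted p under 0.05, and 24 to 35 members with the Cxcr7-/- pools below the control pools, a count chosen after seeing the data, where 34.2% to 39.7% of all kept probe sets did so. The median of the members ran from -1.26 to -0.45 over these fits, the ventricular median from -1.66 (without control pool 1) to -0.57, the atrial median from -0.78 to -0.35 and the shared median from -1.31 to -0.47. Signs turned over these fits for Ankrd1 (-0.067 to 0.71, negative without Cxcr7-/- pool 2, at -0.034, or control pool 1), Cacna1c (-0.37 to 0.13, positive without control pool 1), Ckmt2 (-0.85 to 0.24, positive without Cxcr7-/- pool 1, at 0.11, or control pool 2), Nppa (-0.67 to 0.35) and Nppb (-0.96 to 0.64), the last pair positive without control pool 2; the cause was not tested. Without the intensity trend 11 members were lower at an unadjusted p under 0.05, against 6.72% of all kept probe sets. The other pseudocounts, filters and normalizations and the mean over all probe sets of a gene left 0 members past the adjusted threshold and a median of the members between -0.88 and -0.75. The replicate number as a block left 0 probe sets past the threshold. In that fit 24 members were lower at an unadjusted p under 0.05, against 4.84% of all kept probe sets. Over all kept probe sets same-numbered pools did not deviate together (r = -0.26). Pool 2 was above pool 1 in 33 of the 37 members for Cxcr7-/- and in 34 for control. Over all 22518 kept probe sets these counts were 11107 and 10640. In 31 members pool 2 was above pool 1 in both genotypes. The labels tie the numbers to no litter or day. Crossed numbers, added after seeing the data, gave 5 probe sets and 0 members past the threshold.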
